A study of Mus musculus with 20 samples.

Results

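Ears of ACD model mice given SB415286, an inhibitor of the kinase GSK3, were compared with ears of ACD model controls by RNA sequencing. The labels put 5 libraries in the SB415286 group (title numbers 3, 4, 5, 7 and 8) and 5 in the control group (1, 3, 4, 5 and 6), which is 10 of the 20 libraries in the series. The other 10 come from the AD model, 5 given SB415286 at 0.7 mg/kg and 5 controls, and enter only the comparison of the models at the end. The labels do not spell out ACD or AD. All mice were C57BL/6, 6 to 7 weeks old and healthy before a model was set up. The SB415286 group received 2 mg/kg into the abdominal cavity and its ears were collected after 4 h. The sample labels call the controls untreated, whereas the design text calls them vehicle controls, and the treatment protocol speaks of the AD model at either dose. Nothing in the labels ties a library to a cage or a day, or says how many mice a library holds, so p-values measure the spread between these libraries.

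GSK3 is a pair of serine/threonine kinases, GSK3A and GSK3B, that are active in resting cells. Within a complex built on axin and APC they mark beta-catenin for destruction, and they also restrain glycogen synthase. GSK3 also acts on NF-kB, on cytokine output and on clock proteins such as REV-ERB alpha. Inhibitors act on the enzyme, and transcripts show what follows in the tissue. Whole ear skin holds epidermis, hair follicles, dermis, cartilage, a thin muscle layer and, in an inflamed ear, infiltrating leukocytes.

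Library totals were 19.4 to 20.2 M expected counts (M, mega) with SB415286 and 18.8 to 20.1 M in controls. Between 17452 and 17854 genes had reads in a library. Pairwise correlations of log2 CPM (normalised counts per M) lay between 0.966 and 0.991. SB415286 library 5 stood farthest out on the first principal component and library 8 on the second, so values without both are given beside many of the results below. Keratin genes of the epidermis summed to between 17025 and 30302 CPM in SB415286 ears and between 23264 and 29758 CPM in control ears, and cartilage and skeletal muscle genes were also present, as ear tissue holds them. CPM values compare libraries for 1 gene and not genes with each other.

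Of 15150 genes tested, 4 passed an adjusted p of 0.05 (0.0264%), 3 higher (0.0198%) and 1 lower (0.0066%) with SB415286. The 3 that rose are transcripts best known from the lung. Sftpb encodes surfactant protein B, which spreads the lipid film of the alveoli. Sftpc encodes surfactant protein C of type 2 alveolar cells, and Scgb1a1 the secretoglobin of club cells in the airways. The gene that fell, Sectm1a, encodes a secreted and transmembrane protein whose human relative, SECTM1, binds CD7 on T and NK cells.

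Sftpb (chromosome 6, 72304610 to 72314373, GRCm38.p6) was measured at 4.46, 6.04, 9.29, 6.23 and 5.15 CPM in SB415286 libraries 3, 4, 5, 7 and 8. In controls 1, 3, 4, 5 and 6 it was at 0.733, 0.447, 0.853, 0.802 and 0.501 CPM. The groups did not overlap, and its log2 fold change was 3.21 ± 0.25 (SE, n = 5 per group, adjusted p = 0.000577). Sftpb held its call in all 10 fits that left out 1 library, at 3.03 to 3.31.

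Sftpc (chromosome 14, 70520941 to 70524081) gave 48, 33, 222, 71 and 85 reads in the SB415286 libraries, in the same order, against 0, 1, 1, 1 and 1 in the controls. Scgb1a1 (chromosome 19, 9083642 to 9087956) gave 72, 58, 386, 137 and 139 reads with SB415286 and 6, 1, 1, 4 and 4 in controls. Library 5 was the highest for all 3 genes, and for each its lead over the next library exceeded the range of the other 4 SB415286 libraries. The fitted log2 changes were 6.68 ± 0.80 for Sftpc (adjusted p = 0.0194) and 5.62 ± 0.71 for Scgb1a1 (adjusted p = 0.0258), and both rest on very few control reads. Leaving out any 1 of the 5 controls ended the call for Sftpc, at an adjusted p of up to 0.118, and for Scgb1a1, at up to 0.144. For Scgb1a1 so did leaving out SB415286 library 7 (adjusted p = 0.0508). Per length, Sftpc averaged 9.52 ± 7.97 TPM, Sftpb 6.34 TPM and Scgb1a1 29.6 TPM in SB415286 ears (SD for Sftpc, n = 5).

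Sectm1a (chromosome 11, 121067395 to 121097153) was at 27.2, 24.3, 25.8, 27.9 and 27.9 CPM in SB415286 libraries, against 38.8, 39.1, 45.3, 39.2 and 40.9 CPM in controls. The highest SB415286 library lay below the lowest control, and the spread within each group was small. Its log2 fold change was -0.61 ± 0.07 (adjusted p = 0.00680), and the call held in all 10 fits without 1 library. It did not hold in 1 fit of all 20 libraries (adjusted p = 0.564), with the title number as a block (adjusted p = 0.19) or on the 6 libraries behind the authors' second means (adjusted p = 0.421). The block compares the groups only through title numbers 3, 4 and 5, which both groups share. Sectm1b, a related gene beside it on chromosome 11, had the same fitted change with a wide error, -0.61 ± 0.38 (adjusted p = 0.508), and its groups overlapped. How the counting shared reads between the pair is not given in the sources used here.

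**Figure D1:**
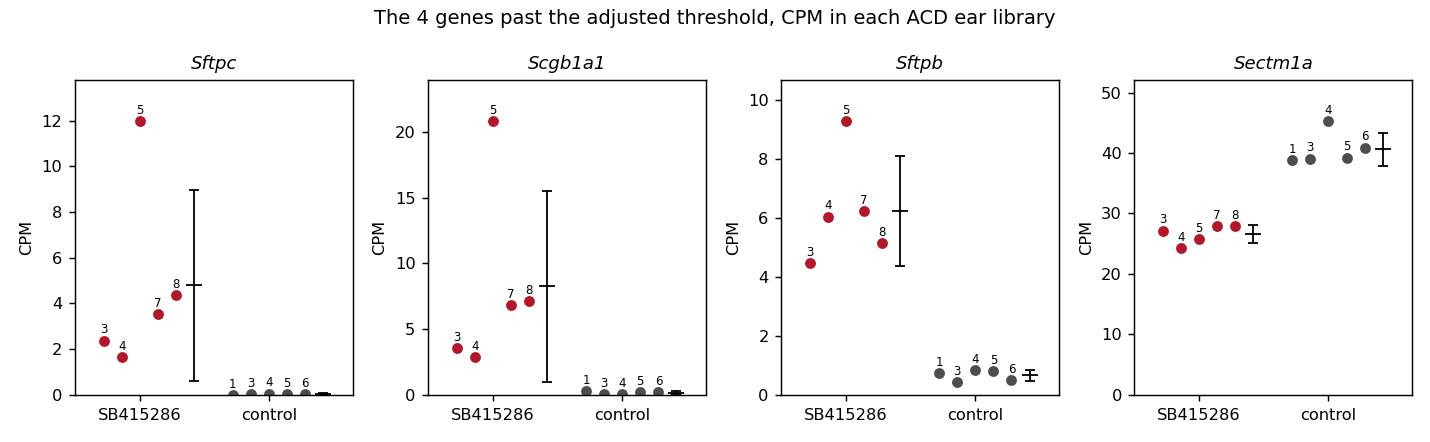
CPM of the 4 genes past the adjusted threshold in each ACD ear library, SB415286 left and control right, with the library number above each point. Bars give mean and SD (n = 5). The groups are apart in each panel, and SB415286 library 5 is far above the others for Sftpc and Scgb1a1.

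The rest of the lung list was mixed. Of 24 lung epithelial genes, 13 had enough reads to be tested, and the median log2 fold change of these was -0.12, against -0.01 over all genes tested. That median was -0.0055 without SB415286 libraries 5 and 8, and above 0 without library 8 (0.0055) or control 5 (0.0086). On the higher side 4 of the 13 (30.8%, against 7.41% of all genes) had an unadjusted p under 0.05, and on the lower side 1 (7.69%, against 6.4%). The 4 were the 3 called genes and Ager, the receptor RAGE of type 1 alveolar cells (0.52 ± 0.20, adjusted p = 0.289). The list was chosen with earlier results of these data known, so this share is not independent of the 3 calls. The remaining 10 tested members had overlapping groups, among them Ager, Slc34a2 (-0.32 ± 0.23), the phosphate carrier of type 2 cells, and Abca3 (-0.25 ± 0.13), the lipid pump of their lamellar bodies. Sftpa1, a further surfactant gene, had 8, 2, 26, 10 and 7 reads with SB415286 and 2, 0, 0, 0 and 0 in controls, higher in the same direction as the called genes but too few for the test. Nkx2-1, the master regulator of lung epithelium, averaged 0.197 ± 0.181 CPM with SB415286 and 0.169 ± 0.104 CPM in controls (SD, n = 5 each), and its groups overlapped. Foxj1 of ciliated cells averaged 0.387 ± 0.0747 CPM with SB415286 and 0.322 ± 0.0743 CPM in controls. Summed over the whole list, the level was 3159 to 5625 CPM with SB415286 and 2510 to 4388 CPM in controls, most of it from Chil1, which neutrophils and macrophages also express.

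Since Sftpb is the lung gene with the firmest call, its promoter is shown from the RefSeq table for GRCm38.p6, as the 250 bases before the start (chromosome 6, 72304360 to 72304609, plus strand). Capitals mark CTCAAG, a core recognised by NKX2-1, and TGTTT, a core recognised by forkhead factors, on either strand.
Sftpb: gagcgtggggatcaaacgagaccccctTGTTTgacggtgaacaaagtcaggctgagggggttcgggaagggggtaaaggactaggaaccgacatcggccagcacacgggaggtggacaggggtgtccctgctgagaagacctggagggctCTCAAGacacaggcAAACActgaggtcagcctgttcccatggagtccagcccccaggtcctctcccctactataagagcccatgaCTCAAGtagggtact
This window holds 2 of each. Among 12007 tested genes with a promoter in the table, 14.89% hold CTCAAG and 40.21% hold TGTTT in the same window, so neither is rare. A match to these letters does not show that a factor binds there.

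**Figure D2:**
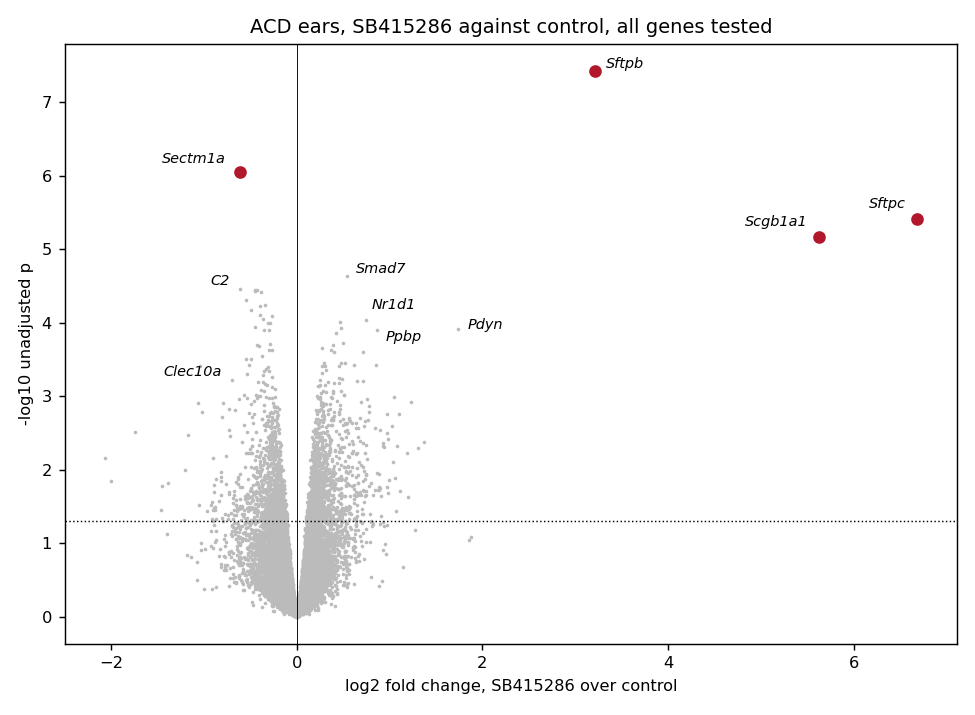
Each point is 1 of 15150 genes tested, with the log2 fold change (SB415286 over control) across and -log10 of the unadjusted p up. The dotted line marks an unadjusted p of 0.05. The 4 genes past the adjusted threshold are in red, 3 right of 0 and 1 left of it.

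Counting the 4 called genes, 2092 genes (13.8%) had an unadjusted p under 0.05, 1123 higher (7.41%) and 969 lower (6.4%) with SB415286. The groups did not overlap for 260 of all genes tested on the higher side (1.72%) and for 241 on the lower side (1.59%). By a rule on the smallest unadjusted p, 12 genes on the higher side and 12 on the lower side were named, of which 4 are the genes above. The other 20 had non-overlapping groups and adjusted p between 0.0579 and 0.0978, so the values that follow are descriptions. DESeq2, another count test on the same libraries, called 19 of these 20 and gave Pdyn no adjusted p. It called 394 of 19453 genes in all. The 20 were picked for a small p in these libraries, so the 19 are not independent of that choice.

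On the higher side stood Smad7, the feedback inhibitor of TGF-beta receptors, at 19.9, 20.8, 24.5, 19.0 and 20.2 CPM with SB415286 and 13.3, 15.3, 14.6, 14.2 and 14.3 CPM in controls (0.54 ± 0.08). The lowest SB415286 library was above the highest control by more than the range of the controls. Nr1d1, the clock repressor REV-ERB alpha, was at 65.4, 63.1, 68.2, 46.4 and 72.7 CPM with SB415286 and at 40.4, 41.0, 39.5, 28.8 and 38.3 CPM in controls (0.75 ± 0.13). Library 7 was the low one among the SB415286 ears and control 5 among the controls. Pdyn, the dynorphin precursor, had the highest fitted change of the 9, 1.74 ± 0.31, at the low levels of 1.83, 1.75, 2.27, 3.29 and 1.85 CPM with SB415286 and 0.342, 0.645, 0.426, 1.05 and 0.802 CPM in controls.

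Ppbp, a platelet and megakaryocyte chemokine, averaged 24.5 ± 4.13 CPM with SB415286 and 13.5 ± 2.68 CPM in controls. Cish, a feedback inhibitor of STAT5 signalling, averaged 57.3 ± 6.54 CPM with SB415286 and 40.6 ± 4.28 CPM in controls. Runx1, a transcription factor of blood and hair follicle cells, averaged 90.9 ± 8.58 CPM with SB415286 and 67.8 ± 5.26 CPM in controls. The others were Igfbp5, which binds insulin-like growth factors (0.39 ± 0.07), Rbis, a ribosome assembly factor (0.46 ± 0.08), and Ccnk, the cyclin of CDK12 and CDK13 (0.27 ± 0.05).

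On the lower side stood C2, the complement protease, at 18.5, 21.9, 19.4, 15.3 and 19.4 CPM with SB415286 and at 27.9, 26.4, 30.1, 32.0 and 27.6 CPM in controls (-0.61 ± 0.09). Sting1, the adaptor for sensing of DNA in the cytosol, was at 80.2, 95.2, 93.6, 89.4 and 76.7 CPM with SB415286 and at 123, 150, 115, 127 and 118 CPM in controls (-0.54 ± 0.09). Erap1, which trims peptides for MHC class I, averaged 77.3 ± 5.09 CPM with SB415286 and 104 ± 7.83 CPM in controls. In each of the 3 the groups were apart by more than the SD of either.

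A pair of aminoacyl-tRNA synthetase genes was among those on the lower side, Farsb (-0.49 ± 0.08) and Lars (-0.45 ± 0.07). Smc1a of the cohesin ring stood at -0.45 ± 0.07 and the nuclear kinase Vrk1 at -0.34 ± 0.06. Taf15, an RNA-binding protein, was at 15.7 ± 0.456 CPM with SB415286 and 20.7 ± 1.46 CPM in controls. The remaining 3, Vwa5a, Yipf1 and Rsu1, had changes between -0.39 and -0.26.

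Transcripts of the kinase targeted by SB415286 and of its best known pathway had small differences, none past the adjusted threshold. Gsk3a was at 171, 174, 188, 179 and 179 CPM with SB415286 and at 155, 158, 158, 157 and 161 CPM in controls, a change of 0.18 ± 0.05 (adjusted p = 0.181). The groups did not overlap, at a small difference. Gsk3b differed by 0.07 ± 0.05 (adjusted p = 0.579) and Ctnnb1, which encodes beta-catenin, by -0.09 ± 0.06 (adjusted p = 0.531). Of 19 tested genes of the GSK3 and destruction complex list, none passed the adjusted threshold, 3 (15.8%, against 7.41% of all genes) had an unadjusted p under 0.05 on the higher side (Csnk1e, Gsk3a and Axin1) and 0 on the lower side. Csnk1e, a casein kinase of the Wnt pathway, also had groups apart (0.24 ± 0.06, adjusted p = 0.174). Gsk3a and Csnk1e were the 2 of the 19 with groups apart, against 1.72% of all genes on the higher side. The median change of the list was 0.06, and 0.02 without libraries 5 and 8.

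Wnt target and feedback genes, which beta-catenin switches on in many tissues, had a median of -0.01 over 23 members. Axin2, the most general of these targets, was at 9.76, 9.33, 6.59, 10.3 and 11.8 CPM with SB415286 and at 12.5, 8.34, 10.9, 11.5 and 8.37 CPM in controls (-0.11 ± 0.16). The groups overlapped throughout. Cd44, the hyaluronan receptor, was the only member with groups apart, against 1.72% of all genes on the higher side. It was at 528 ± 69.8 CPM with SB415286 and 433 ± 27.9 CPM in controls (0.29 ± 0.09, adjusted p = 0.225). Glycogen genes had a median of -0.05 over 21 members. An unadjusted p under 0.05 was seen for 0 on the higher side and 2 on the lower side (9.52%, against 6.4% of all genes). NRF2 targets, antioxidant genes that GSK3 is known to restrain, had a median of 0.08 over 24, with Osgin1 (0.55 ± 0.15) and Gsr (0.39 ± 0.13) leading, but that median was 0.03 without library 8 and -0.01 without libraries 5 and 8.

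**Figure D3:**
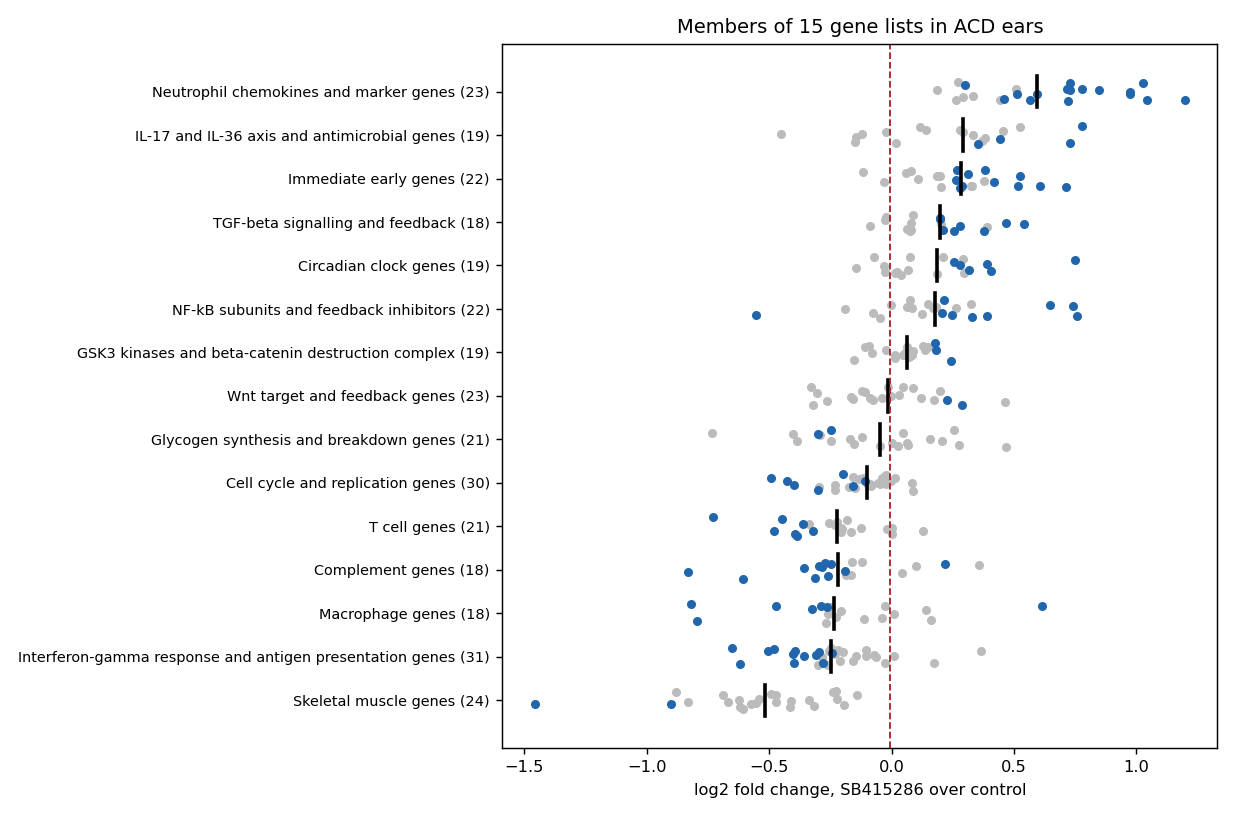
Log2 fold changes (SB415286 over control) of the tested members of 15 gene lists, with the number tested in brackets. Blue points have an unadjusted p under 0.05, black bars are list medians and the dashed line is the median of all genes, -0.01. The neutrophil list lies wholly right of 0, and the interferon-gamma, complement, macrophage and T cell lists lie mostly left of it.

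Among the lists, chemokines that draw neutrophils and marker genes of neutrophils leaned most to the higher side. All 23 tested members had a fold change above 0, against 48.5% of all genes, with a median of 0.59. None passed the adjusted threshold. On the higher side, 16 of the 23 (69.6%, against 7.41% of all genes) had an unadjusted p under 0.05. Groups were apart on that side for 4 (Cxcl2, Cxcl3, S100a9 and Stfa2l1), as they were for 1.72% of all genes. The 16 became 21 without control 6 and 9 without SB415286 library 5, and without libraries 5 and 8 they became 8, while all 23 kept a change above 0 in both. In bulk tissue, more cells of a type and more RNA per cell cannot be told apart.

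Cxcl3 and Cxcl2 encode ligands of the receptor CXCR2. Cxcl3 was at 382, 379, 631, 470 and 305 CPM with SB415286 and at 118, 219, 220, 271 and 274 CPM in controls (0.97 ± 0.24, adjusted p = 0.167). Cxcl2 was at 1377, 1445, 2230, 1727 and 1162 CPM with SB415286 and at 387, 754, 646, 961 and 1147 CPM in controls (1.03 ± 0.27, adjusted p = 0.172). For Cxcl2, SB415286 library 8 and control 6 all but met, and library 5 was the highest for both genes.

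S100a9, which encodes a calprotectin chain stored in neutrophils, was at 3424, 2650, 4103, 3962 and 3213 CPM with SB415286 and at 1263, 2509, 1754, 2273 and 2320 CPM in controls (0.78 ± 0.18, adjusted p = 0.162). Stfa2l1, a stefin of mouse neutrophils, was at 290, 383, 493, 492 and 293 CPM with SB415286 and at 112, 188, 156, 216 and 275 CPM in controls (1.04 ± 0.24). Control 1 was the lowest of the 10 libraries for all 4 genes. Ly6g, the surface marker by which mouse neutrophils are sorted, averaged 24.5 ± 12.3 CPM with SB415286 and 12.4 ± 4.45 CPM in controls, and its groups overlapped. The receptor genes had smaller fitted differences, Cxcr2 of 0.27 ± 0.19 and Csf3r of 0.19 ± 0.19, each with overlapping groups. Elane and Mpo, granule genes of neutrophil precursors, were too low to be tested.

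NF-kB is a dimeric factor held in the cytosol by IkB proteins until a cytokine or microbial signal frees it, and it drives Cxcl1, Cxcl2, Cxcl3 and its own inhibitor Nfkbia. Their upstream windows are therefore shown, as the 250 bases before the start in the RefSeq table for GRCm38.p6, with matches to an NF-kB motif (GGG, any 2 bases, TTTCC) on either strand in capitals. Cxcl2 is on chromosome 5 at 90903649 to 90903898 (plus strand), Cxcl3 on chromosome 5 at 90785851 to 90786100 (plus strand) and Nfkbia on chromosome 12 at 55492648 to 55492897 (minus strand).
Cxcl2: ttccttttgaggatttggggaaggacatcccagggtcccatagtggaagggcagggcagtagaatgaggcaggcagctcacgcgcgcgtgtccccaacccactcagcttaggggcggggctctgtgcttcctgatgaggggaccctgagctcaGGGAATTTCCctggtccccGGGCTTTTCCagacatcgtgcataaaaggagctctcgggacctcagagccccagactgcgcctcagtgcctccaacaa
Cxcl3: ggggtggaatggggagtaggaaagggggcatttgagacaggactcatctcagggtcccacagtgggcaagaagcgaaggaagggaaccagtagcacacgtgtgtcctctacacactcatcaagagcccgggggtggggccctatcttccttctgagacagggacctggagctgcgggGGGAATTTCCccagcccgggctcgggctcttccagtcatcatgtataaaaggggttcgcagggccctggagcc
Nfkbia: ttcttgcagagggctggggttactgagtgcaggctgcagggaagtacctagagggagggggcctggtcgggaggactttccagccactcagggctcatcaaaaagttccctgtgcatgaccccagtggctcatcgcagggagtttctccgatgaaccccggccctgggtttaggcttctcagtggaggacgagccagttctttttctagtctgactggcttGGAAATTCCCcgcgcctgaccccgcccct
The motif occurs 2 times in the Cxcl2 window and 1 time in each of the other two. It is in 3 of 20 neutrophil genes with a promoter in the table (Cxcl1, Cxcl2 and Cxcl3), in 5 of 18 genes of the NF-kB list and in 1.87% of 12007 tested genes. These are matches of letters only, and binding was not measured.

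The NF-kB list itself, its subunits, inhibitors and common targets, had 17 of 22 members above 0 and a median of 0.18. No member passed the adjusted threshold, while 8 (36.4%, against 7.41% of all genes) had an unadjusted p under 0.05 on the higher side. On the lower side 1 had (4.55%, against 6.4%). The 8 became 5 without SB415286 library 5, control 1 or control 3, and 4 without libraries 5 and 8, where the median was 0.10. Ptgs2, the inducible cyclooxygenase of prostaglandin synthesis, was at 619, 553, 662, 486 and 733 CPM with SB415286 and at 221, 349, 388, 449 and 400 CPM in controls (0.76 ± 0.17, adjusted p = 0.154). Nfkbia was at 309, 290, 408, 289 and 300 CPM with SB415286 and at 211, 259, 255, 265 and 281 CPM in controls (0.33 ± 0.11). Both had groups apart, as had Bcl3, a nuclear IkB protein, at 134 ± 8.37 CPM with SB415286 and 113 ± 4.65 CPM in controls. On the higher side groups were apart for these 3 of the 22, against 1.72% of all genes. The 1 with an unadjusted p under 0.05 on the lower side was Vcam1, the vascular adhesion molecule. It was at 46.0 ± 13.7 CPM with SB415286 and 67.6 ± 14.7 CPM in controls (-0.55 ± 0.21). Tnf (0.74 ± 0.25), Il6 (0.65 ± 0.28) and Il1b (0.60 ± 0.18), which encode inflammatory cytokines, leaned higher with overlapping groups.

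Immediate early genes, which cells transcribe within minutes of a stimulus, had 20 of 22 members above 0 and a median of 0.28. On the higher side 11 (50%, against 7.41% of all genes) had an unadjusted p under 0.05, and on the lower side 0. The 11 became 5 without libraries 5 and 8. Ier3, an early gene that also answers NF-kB, was at 603, 533, 752, 542 and 651 CPM with SB415286 and at 266, 357, 417, 420 and 417 CPM in controls (0.71 ± 0.14, adjusted p = 0.0991). Nr4a3, an orphan nuclear receptor, averaged 39.0 ± 4.98 CPM with SB415286 and 27.2 ± 3.26 CPM in controls. Fos did not follow, at 152 ± 37.9 CPM with SB415286 and 165 ± 115 CPM in controls, where control 5 alone reached 370 CPM.

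Genes of TGF-beta signalling had 15 of 18 members above 0 and a median of 0.20, with 8 at an unadjusted p under 0.05, all higher (44.4%, against 7.41% of all genes). They include the common partner Smad4 (0.20 ± 0.06), the ligand Tgfb1 (0.28 ± 0.08), the receptor Tgfbr1 (0.20 ± 0.09) and the corepressor Tgif1 (0.47 ± 0.11). Smad7, Smad4 and Tgif1 had groups apart on the higher side, as 1.72% of all genes had. Tgfbr2, the receptor that binds the ligand first, did not follow (-0.03 ± 0.05). The mean log2 CPM of the list lay between 5.88 and 6.06 in SB415286 ears and between 5.70 and 5.81 in control ears, so every SB415286 library stood above every control, and 14 of 18 members were above 0 without libraries 5 and 8.

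Clock genes had 15 of 19 members above 0 and a median of 0.19. Beside Nr1d1, Bhlhe40, a further clock repressor, had groups apart, at 279 ± 45.8 CPM with SB415286 and 213 ± 8.20 CPM in controls (0.39 ± 0.10, adjusted p = 0.167). On the higher side 1.72% of all genes had groups apart. Per1 (0.41 ± 0.16), Per2 (0.28 ± 0.11) and Nr1d2 (0.26 ± 0.09) leaned the same way with overlapping groups, whereas Clock itself was at -0.03. There were 6 members with an unadjusted p under 0.05 (31.6%, against 7.41% of all genes), all higher, and 3 without control 3. The labels give no clock time for the collection of either group, so a difference in the hour of the day and the injection cannot be told apart.

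**Figure D4:**
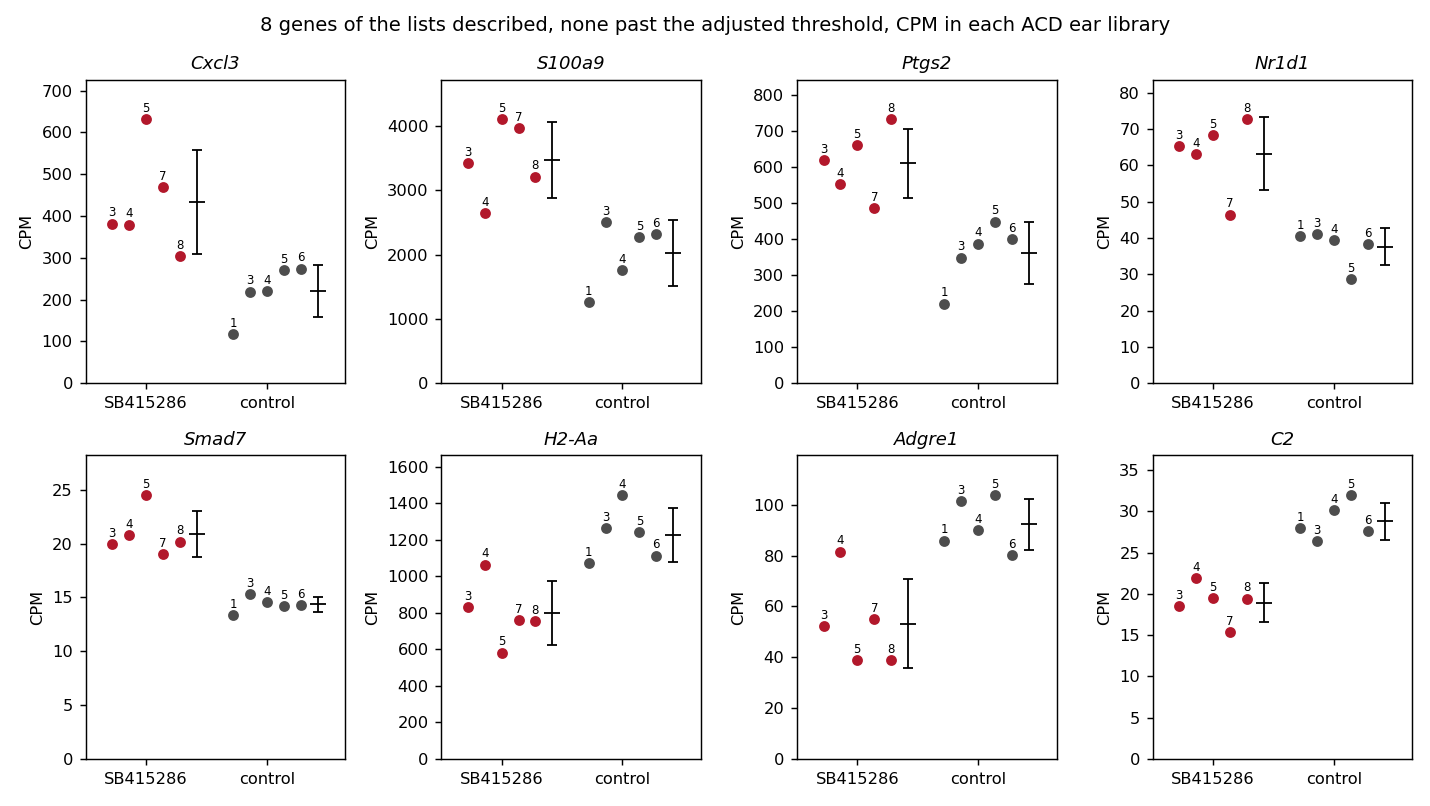
CPM of 8 genes of the lists in each ACD ear library, SB415286 left and control right, with library numbers above the points and mean and SD at the side (n = 5). None of the 8 passed the adjusted threshold. The groups overlap only for Adgre1, where SB415286 library 4 lies with the controls.

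On the lower side stood genes that interferon-gamma induces and that present antigen. Of 31 members, 3 had a change above 0 and the median was -0.25. None passed the adjusted threshold, 12 had an unadjusted p under 0.05 on the lower side (38.7%, against 6.4% of all genes) and 0 on the higher side. The 12 became 9 without SB415286 library 3 or 8 or control 3 or 5, 24 without SB415286 library 5, and 22 without libraries 5 and 8. H2-Aa, the alpha chain of MHC class II, was at 832, 1065, 582, 761 and 756 CPM with SB415286 and at 1072, 1263, 1446, 1242 and 1114 CPM in controls (-0.62 ± 0.14, adjusted p = 0.154). SB415286 library 4 came close to control 1 and the other 4 lay well below.

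The further class II genes leaned the same way. H2-Eb1 averaged 394 ± 95.8 CPM with SB415286 and 559 ± 43.9 CPM in controls, and Ciita, the regulator that class II genes need, averaged 27.2 ± 10.3 CPM with SB415286 and 42.8 ± 11.8 CPM in controls. Ifngr1, the ligand-binding chain of the interferon-gamma receptor, had groups apart (-0.30 ± 0.07, adjusted p = 0.153). H2-Aa and Ifngr1 were the 2 of the 31 with groups apart, against 1.59% of all genes on the lower side. Ifng itself had a fitted difference of -0.25 with overlapping groups. Genes of the type I interferon response had a median of -0.01 over 25, which ran from -0.09 without SB415286 library 5 to 0.10 without library 3 and was -0.15 without libraries 5 and 8.

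Complement genes had 4 of 18 members above 0 and a median of -0.22. On the lower side 10 (55.6%, against 6.4% of all genes) had an unadjusted p under 0.05. Among the 10 were C1s1 and C1ra, the proteases of the C1 complex, and C3. The 1 on the higher side (5.56%, against 7.41%) was Cd59a. C1s1 was at 103, 121, 106, 89.0 and 97.6 CPM with SB415286 and at 132, 130, 140, 130 and 130 CPM in controls (-0.36 ± 0.08, adjusted p = 0.131). C1ra averaged 150 ± 9.60 CPM with SB415286 and 170 ± 6.92 CPM in controls. C2, C1s1 and C1ra had groups apart on the lower side, as 1.59% of all genes had. The count of 10 became 8 without libraries 5 and 8.

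Most macrophage, dendritic and T cell markers also leaned lower, and the part of these cells in the result was not tested. Macrophage genes had 4 of 18 members above 0, a median of -0.24 and a summed level of 4339 to 6005 CPM with SB415286 against 4928 to 6232 CPM in controls. Adgre1, which encodes F4/80, was at 52.2, 81.6, 38.8, 55.1 and 38.7 CPM with SB415286 and at 85.9, 102, 90.2, 104 and 80.3 CPM in controls (-0.79 ± 0.19, adjusted p = 0.161). Cd68 (-0.02 ± 0.12) did not follow, and Cd14, the co-receptor for bacterial lipopolysaccharide, had a difference of 0.61. An unadjusted p under 0.05 on the lower side was seen for 6 macrophage genes (33.3%, against 6.4% of all genes). The 6 became 11 without SB415286 library 4 and 3 without library 3, control 3 or control 5. Without libraries 5 and 8 the median of the list was -0.13. Langerhans and dendritic cell genes were more mixed, with 6 of 18 members above 0 and a median of -0.15. An unadjusted p under 0.05 was seen for 3 on the lower side (16.7%, against 6.4% of all genes). On the higher side 1 had it, Ccl22 (5.56%, against 7.41%). Only Clec10a of dermal dendritic cells had groups apart, as 1.59% of all genes had on the lower side. It was at 49.3, 62.5, 31.6, 48.3 and 47.3 CPM with SB415286 and 82.5, 82.6, 66.1, 82.5 and 72.4 CPM in controls (-0.69 ± 0.15, adjusted p = 0.14).

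T cell genes had 3 of 21 members above 0, a median of -0.22 and a summed level of 684 to 832 CPM with SB415286 against 784 to 832 CPM in controls. Prf1, the pore-forming protein of killer lymphocytes, was at 3.92, 5.49, 4.48, 4.63 and 2.37 CPM with SB415286 and at 5.62, 6.45, 7.78, 7.57 and 7.26 CPM in controls (-0.73 ± 0.19, adjusted p = 0.179). The groups were apart by a narrow gap, with library 8 the lowest. No other member had groups apart, and 1.59% of all genes had on the lower side. Nkg7 of cytotoxic granules (-0.48 ± 0.14) and Cd8a (-0.39 ± 0.18) leaned lower with overlapping groups, and Cd4 did so by -0.12 ± 0.32. Of the list, 7 members (33.3%, against 6.4% of all genes) had an unadjusted p under 0.05, all lower. The 7 became 12 without SB415286 library 4, 4 without library 8, control 4 or control 5, and 3 without libraries 5 and 8.

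**Figure D5:**
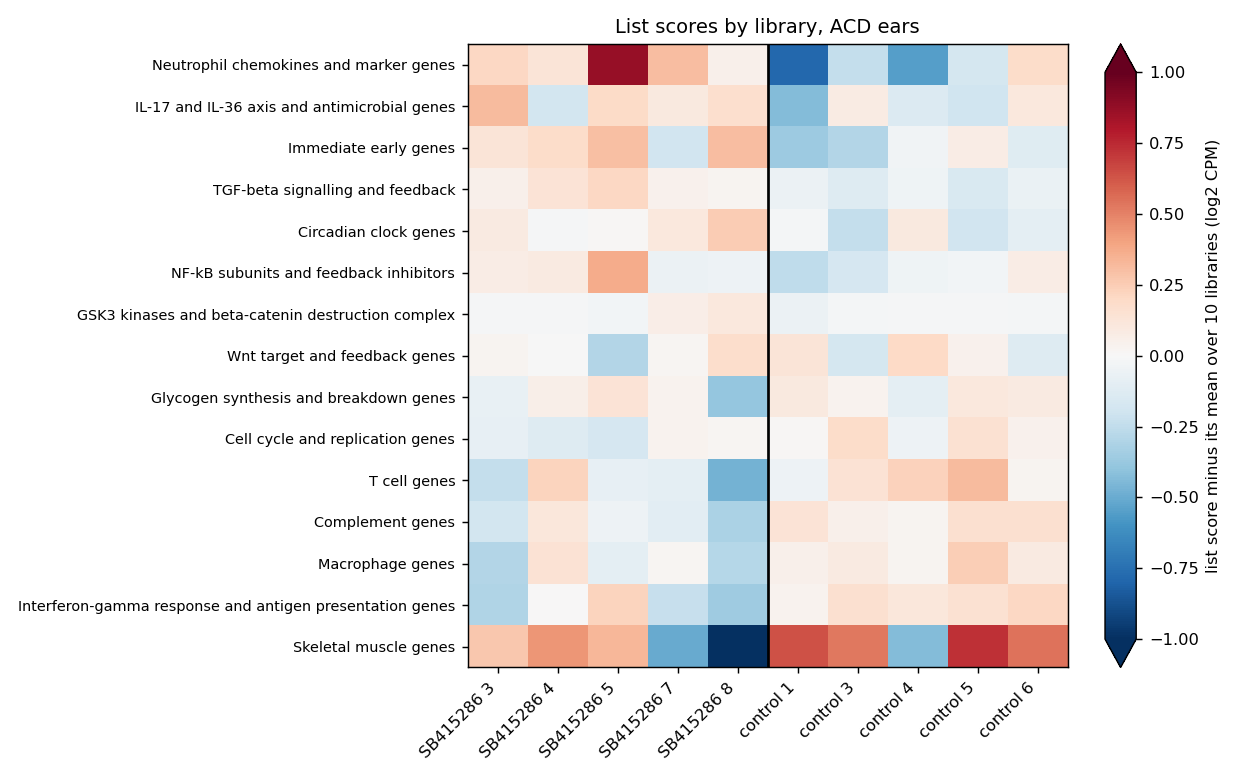
List score (mean log2 CPM of the tested members) of 15 gene lists in each ACD library, minus the mean over 10 libraries, SB415286 left of the line and control right. Red is above and blue below that mean, and the scale is clipped at 1. The neutrophil list is highest in SB415286 library 5 and lowest in control 1, and the skeletal muscle list is lowest in SB415286 library 8.

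Genes of the cell cycle and replication had 3 of 30 members above 0 at a small median of -0.10. On the lower side 7 (23.3%, against 6.4% of all genes) had an unadjusted p under 0.05, and on the higher side 0. The 7 became 5 without SB415286 library 4 or control 3 and 11 without SB415286 library 7 or control 4. Rrm1, the large subunit of ribonucleotide reductase, was at 76.5, 70.1, 66.4, 77.7 and 90.9 CPM with SB415286 and at 102, 111, 96.5, 101 and 103 CPM in controls (-0.43 ± 0.08, adjusted p = 0.0943). Top2a, which untangles replicated DNA, averaged 115 ± 17.7 CPM with SB415286 and 161 ± 12.1 CPM in controls (-0.49 ± 0.10), and library 8 reached the range of the controls. Mki67, the usual marker of dividing cells, was at -0.29 ± 0.14 with overlapping groups.

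Subunits of the respiratory chain had a median of 0.02 over 96 genes, yet single members were tight within groups. Sdha, the flavoprotein of complex II, was at 104, 110, 104, 104 and 107 CPM with SB415286 and at 129, 134, 122, 135 and 123 CPM in controls (-0.28 ± 0.05, adjusted p = 0.0715). Ndufs1 (-0.24 ± 0.05) and Ndufa9 (-0.35 ± 0.08) of complex I also lay lower with groups apart, and Atp5md of the ATP synthase lay higher (0.37 ± 0.07). In all, 10 members (10.4%, against 7.41% of all genes) had an unadjusted p under 0.05 on the higher side. On the lower side 11 had (11.5%, against 6.4%). Groups were apart for 3 of the 96 on the higher side and 4 on the lower side, against 1.72% and 1.59% of all genes.

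Structural genes of the ear varied between libraries more than between groups. Epidermal keratins had 1 of 16 members above 0 and a median of -0.22, with 1 at an unadjusted p under 0.05 in each direction (Krt77 higher and Krt6b lower). That is 6.25% on each side, against 7.41% higher and 6.4% lower of all genes. Krt10, the keratin of the upper epidermis, was at 1261 ± 528 CPM with SB415286 and 1588 ± 759 CPM in controls. Skeletal muscle genes had 0 of 24 above 0 and a median of -0.52. Of the 24, 2 had an unadjusted p under 0.05, all lower (8.33%, against 6.4% of all genes). Their score ran from 2.22 to 5.20 with SB415286, the lowest in library 8, and from 4.33 to 5.49 in controls, the lowest in control 4. Without library 8 the median was -0.24. Collagen and fibroblast genes had a median of -0.02 over 24.

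The difference between the injection's effect in ACD and in AD ears was tested as an interaction over 15700 genes in all 20 libraries, and 8 genes passed (0.051%). Among the genes named here, it passed for Sftpb (3.20, adjusted p = 0.00439), Scgb1a1 (6.70, adjusted p = 0.0146), Sftpc (7.23, adjusted p = 0.0274) and the cartilage and follicle regulator Sox9 (1.29, adjusted p = 0.0495). With the title number as a block none of these 4 passed, and without ACD control 3 only 1 of the 8 calls was kept. In AD ears Sftpb had 218 reads with SB415286 and 227 in controls, Scgb1a1 had 45 and 100, and Sftpc had 14 and 22. Low numbers of reads from these lung genes were thus present in both AD groups. For Sectm1a the AD change was -0.86 ± 0.37 (adjusted p = 0.231), and the interaction (0.26, adjusted p = 0.826) did not pass. C2 stood at 0.43 ± 0.17 in AD ears, and its interaction of -1.03 did not pass (adjusted p = 0.0549). The models also differ in dose and in the deposited table, and between 36.6% and 43.5% of ACD counts were whole numbers against 64.8% to 66.9% of AD counts, so model, dose and processing cannot be told apart.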

How the data were processed

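Ear RNA was selected with oligo(dT) and sequenced on an MGISEQ-2000, per the labels' protocols. The authors deposited 1 table per model with expected counts per gene, not normalised, and with FPKM and TPM values per gene and library, per the file headers. The submitters' processing notes list HISAT, HISAT2, Bowtie2 2.2.5 and RSEM 1.2.8 with GRCm38.p6 and GRCh38.p13, without roles. Deposited expected counts were rounded and tested in R 4.3.3 with edgeR 4.0.16: filterByExpr, TMM scaling, robust quasi-likelihood fit, 2-sided, Benjamini-Hochberg over 15150 of 19501 genes, adjusted p under 0.05. The AD libraries entered only the interaction fit of 4 groups. CPM use TMM-scaled totals. List scores are mean log2 CPM with a prior count of 2. SE is the absolute log2 fold change over the root of F. The code was tested on simulated data.

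The 56 gene lists, the named genes and the tests were chosen with earlier results of these data known. Named were the 4 called genes, the 12 rises and 12 falls of smallest unadjusted p with at least 1 CPM, Gsk3a, Gsk3b, Ctnnb1, Axin2, the 2 to 4 members of smallest p of each list other than 9 lists of other organs, and lung genes of at least 10 reads. Other genes named were chosen after their values were seen. Alternatives were RLE and upper quartile scaling, 2 other filters, DESeq2 1.42.0, limma 3.58.1 voom with quality weights, limma on log2(FPKM + 1) and log2(FPKM + 0.1), 1 fit of 20 libraries, the title number as a replicate block, and each library left out. 2 more were added after the data were seen: the libraries behind the authors' second means, and leaving out SB415286 libraries 5 and 8. For every pair of libraries within a group, chi-square per degree of freedom was 10.9 or more, so no library is a copy of another in its group. Pairs across the groups were not checked in this way. Title numbers 3, 4 and 5, shared by both groups, did not pair libraries (r = -0.18, -0.01 and 0.20). In the ACD comparison the block compares the groups only through libraries with these numbers. Coordinates are from RefSeq on GRCm38.p6, where 19442 of 19501 genes were found. Promoters matched for 12007 tested genes. Some genes are not reported here.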

Additional observations from a re-analysis of the deposited data

Results flagged for a closer look

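Of 168 groups of 5 libraries checked for a library far from the others, 11 had one. Chance alone flags about 1 in 20 such groups.

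SB415286 library 5 stood far above the other SB415286 ears for Sftpc (11.99 CPM) and for Scgb1a1 (20.8 CPM). Control 1 had 0 CPM of Sftpc, where each of the other controls had 1 read, which is a gap of 1 read. Nr1d1 was low in control 5, at 28.8 CPM, and Vrk1 was high in SB415286 library 4, at 33.9 CPM.

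By mean log2 CPM of a list, SB415286 library 5 was low for the Sectm1 family and its K12 partners (3.53). In controls, library 1 was low for the GSK3 and destruction complex genes (5.38), library 3 for adipocyte genes (4.46) and library 4 for skeletal muscle genes (4.33). Control 5 was high for macrophage genes (7.24) and control 4 for cytosolic ribosomal protein genes (9.44).

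The effect of SB415286 differed between ACD and AD ears by the interaction test in edgeR for Sftpc (7.23 on the log2 scale, adjusted p = 0.0274), Scgb1a1 (6.70, adjusted p = 0.0146), Sftpb (3.20, adjusted p = 0.00439) and Sox9 (1.29, adjusted p = 0.0495). Sox9 itself was at 27.5 ± 1.43 CPM in ACD ears with SB415286 and 23.1 ± 2.73 CPM in ACD controls (SD, n = 5 each), a difference that did not pass (adjusted p = 0.251). Its ACD change ran from 0.19 to 0.30 in fits without 1 library, a small part of the 1.29. The cartilage list, which holds Sox9, had a median change of -1.18 over 17 genes in AD ears and -0.24 over 18 in ACD ears.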

How the results depend on the processing

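The 4 called genes were 13 with upper quartile scaling, 394 with DESeq2 (236 higher, 158 lower), 17 with limma voom and quality weights, 12 with limma on log2(FPKM + 1) and 12 on log2(FPKM + 0.1), 1 with the replicate block, 2 on the libraries behind the authors' second means and 13 without SB415286 libraries 5 and 8. Fits without 1 library gave 2 to 18: 2 without any 1 control, 7 without SB415286 library 4 and 18 without library 8. Higher calls were 30.8% with upper quartile scaling, 59.9% with DESeq2, 29.4% with voom and 25% with limma on FPKM, against 75% in the edgeR fit. All 4 genes kept their calls under both other scalings, voom and both FPKM fits. DESeq2's filter on low means gave Sftpc, Scgb1a1 and Sftpb no adjusted p. The block compares the groups only through title numbers 3, 4 and 5, which did not pair libraries. With it Scgb1a1 kept its call, and Sftpb (adjusted p = 0.059), Sftpc (0.059) and Sectm1a (0.19) did not. Sectm1a also missed the threshold in 1 fit of 20 libraries (adjusted p = 0.564), Scgb1a1 without a filter (adjusted p = 0.0539) and all 4 on the libraries of the second means (adjusted p of 0.0527 to 0.421).

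The 8 interaction calls were 14 with upper quartile scaling, 163 with DESeq2 and 1 with the replicate block, and 1 to 312 without 1 library: 312 without AD SB415286 library 7, 234 without AD control 6, 19 without AD SB415286 library 2, 1 without ACD control 3, and 3 to 5 without ACD SB415286 library 7 or 8, ACD control 1, 4, 5 or 6, AD SB415286 library 3, 4 or 6, or AD control 5. Of the 56 list medians, 18 were above 0, and 17 to 24 without 1 library.

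Among named genes, Lyz1 (-0.12) ran from -0.21 without SB415286 library 4 to 0.0086 without control 5, was also above 0 without SB415286 library 8, and was at 0.056 without libraries 5 and 8. Napsa (-0.02) was at 0.080 with the block and ran from -0.095 without SB415286 library 4 to 0.039 without library 8. Rtkn2 (-0.36) was at 0.074 with the block. These lung genes were not called in any fit, and no other gene named by rule changed sign. For genes chosen after their values were seen, signs were not compared across the fits. Counts of a few reads, such as those of Sftpc in controls, limit precision.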

Other observations

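Lists tied to allergy and itch stood near the background in ACD ears. Type 2 cytokines, chemokines and receptors had 11 of 22 members above 0 and a median of -0.01. Il33, an alarmin of keratinocytes and vessels, was at 253, 237, 246, 218 and 229 CPM with SB415286 and at 287, 318, 260, 255 and 276 CPM in controls (-0.24 ± 0.07, adjusted p = 0.21), with groups apart. Tslp varied within groups, at 7.43 ± 4.71 CPM with SB415286 and 9.52 ± 6.37 CPM in controls. The list of mast cells, basophils and eosinophils had 7 of 15 members above 0. Its median was -0.02, and 0.09 without SB415286 libraries 5 and 8. An unadjusted p under 0.05 was seen for 1 on the higher side (6.67%, against 7.41% of all genes) and 2 on the lower side (13.3%, against 6.4%). Mcpt8, a basophil protease in it, was at 9.71 ± 2.00 CPM with SB415286 and 14.1 ± 1.76 CPM in controls (-0.54 ± 0.14, adjusted p = 0.181). Il33 and Mcpt8 were each the only member of their list with groups apart, as 1.59% of all genes were on the lower side. Itch mediators and receptors had a median of -0.03 over 21.

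Some genes outside the larger patterns had small errors. Prg4, the lubricating proteoglycan of joints and fascia, was at 713, 617, 784, 879 and 517 CPM with SB415286 and at 527, 398, 369, 355 and 527 CPM in controls (0.69 ± 0.16, adjusted p = 0.161). Its groups overlapped. The cartilage list, which holds Prg4, had 15 of 18 members below 0 and a median of -0.24. Cdkn1a, which encodes the cell cycle inhibitor p21, averaged 527 ± 61.7 CPM with SB415286 and 378 ± 50.8 CPM in controls (0.48 ± 0.11), with groups apart. Fgfr1, a fibroblast growth factor receptor, averaged 190 ± 9.14 CPM with SB415286 and 160 ± 16.8 CPM in controls (0.25 ± 0.07), also with groups apart. Hsph1, a heat shock protein, was lower with groups apart (-0.33 ± 0.09), while Ddit3 of the unfolded protein response leaned higher (0.30 ± 0.08). None of these passed the adjusted threshold.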
